A study of Mus musculus with 24 samples.

Results

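Interferon-stimulated genes were examined in the mouse carotid artery as 39 genes taken by name, each a row of the count tables whose Ensembl identifier carries a listed symbol in the GENCODE M21 annotation. All 39 were found among the 55421 rows, and all 39 passed the filter on low counts that left 25056 genes for testing. The rule itself takes genes by name and uses no measured value. The 39 genes were ordered by role into transcription factors that relay the interferon signal (Stat2, Irf9 and Irf7), the ISG15 modification system, IFIT proteins, the OAS family, nucleic acid sensors, direct antiviral effectors, interferon-inducible GTPases and 7 other members.

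RNA was sequenced from whole uninjured carotid arteries of C57BL/6 mice labelled as 9 weeks old, in 24 libraries of 1 numbered animal each and 6 libraries per group. The titles give 4 groups: ovariectomized mice on placebo (OVX, called vehicle here), and mice given estradiol (E2), estetrol (E4, a fetal estrogen that carries more hydroxyl groups than estradiol) or tamoxifen (TAM, a selective estrogen receptor modulator). The design text gives 3 weeks of treatment, whereas the study's text gives a shorter time on pellets. The study's text describes ovariectomy and pellets for the vehicle, E2 and E4 mice, with a different dose for each estrogen, while the labels do not state ovariectomy for the tamoxifen mice. The treatment field of the E4 libraries reads Placebo, so these libraries were assigned from their titles alone. The artery is a mixture of smooth muscle, endothelium, adventitial fibroblasts and immune cells, and a bulk library reads their sum. The study's text places the vehicle, E2 and E4 sets in 1 experiment and does not describe the tamoxifen set, so tamoxifen and the occasion of its work cannot be told apart. The p-values set a difference of group means against the spread between libraries within groups, estimated in 1 fit of all 24 libraries.

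Type I interferons bind the IFNAR receptor, whose kinases JAK1 and TYK2 act on transcription factors that include STAT2. With IRF9 these form a complex that binds the interferon-stimulated response element (ISRE) of target promoters, whereas interferon-gamma acts mainly through the gamma-activated site (GAS). The induced proteins degrade or sequester viral RNA, block virus entry and release and sense foreign nucleic acid, and many of them are present at a basal level in vascular and immune cells.

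The sequences before the start of members from several role groups are shown because these genes share a response element that the choice of members did not use. RefSeq windows of GRCm38.p6, reaching from 250 bases before to 50 bases after the start, matched 29 of the 39 members. Usp18, Oas2, Dhx58, Zbp1, Mx1, Mx2, Iigp1, Rtp4, Ifi27l2a and Parp14 had no entry. The ISRE core was searched on both strands as GAAA followed, after any 2 bases, by another GAAA, and it was present in 19 of the 29 matched members (65.5%), against 3.99% of all 27025 genes in the table. The GAS pattern TTCNNNGAA, searched in the same way, was present in 7 of the 29 (24.1%), against 9.55% of all genes. By window the shares were 60.6% of 33 member windows against 3.44% of all 32851 for the ISRE core, and 21.2% against 8.30% for GAS. Capitals mark the ISRE core, which appears as repeated TTTC where the match is on the other strand.
Isg15, chr4:156200835-156200936, minus strand: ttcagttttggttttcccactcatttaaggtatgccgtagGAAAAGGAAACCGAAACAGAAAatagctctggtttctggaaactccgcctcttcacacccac
Ifit1, chr19:34640745-34640853, plus strand: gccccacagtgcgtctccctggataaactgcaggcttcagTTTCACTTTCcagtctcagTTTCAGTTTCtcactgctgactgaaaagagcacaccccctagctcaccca
Ifit3, chr19:34583333-34583456, plus strand: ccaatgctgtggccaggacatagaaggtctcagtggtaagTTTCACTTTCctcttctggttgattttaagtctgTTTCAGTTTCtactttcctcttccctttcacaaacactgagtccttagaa
Rsad2, chr12:26456523-26456612, minus strand: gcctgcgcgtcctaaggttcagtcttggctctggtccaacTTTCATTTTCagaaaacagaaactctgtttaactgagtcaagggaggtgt
Bst2, chr8:71537547-71537642, minus strand: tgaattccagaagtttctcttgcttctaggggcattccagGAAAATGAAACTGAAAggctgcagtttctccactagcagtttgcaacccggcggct
Oas1a, chr5:120907526-120907585, minus strand: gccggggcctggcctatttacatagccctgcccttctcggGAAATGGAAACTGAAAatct
Oas1g, chr5:120887614-120887671, minus strand: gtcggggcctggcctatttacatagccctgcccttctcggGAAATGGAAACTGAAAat
Oas3, chr5:120777685-120777774, minus strand: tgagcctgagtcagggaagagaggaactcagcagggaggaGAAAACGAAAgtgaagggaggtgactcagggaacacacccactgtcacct
Gbp7, chr3:142530243-142530332, plus strand: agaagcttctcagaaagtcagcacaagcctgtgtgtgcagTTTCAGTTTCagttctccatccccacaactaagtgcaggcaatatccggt
Igtp, chr11:58199482-58199555, plus strand: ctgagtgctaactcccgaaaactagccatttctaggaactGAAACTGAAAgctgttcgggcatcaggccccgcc
Trim30a, chr7:104465194-104465269, minus strand: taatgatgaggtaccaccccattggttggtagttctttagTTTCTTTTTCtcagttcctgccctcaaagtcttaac
Isg15 carried 3 cores in tandem between 78 and 57 bases before the start, overlapping each other by 4 bases, and Oas1a and Oas1g carried a tandem of 2 cores close to the start. The 124 bases shown for Ifit3 are also present, letter for letter, before Ifit3b at chr19:34607729-34607852. A core match describes the letters only, and occupancy was not measured here.

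Library totals ran from 24647246 to 64221401 counts, with a median of 45156106. The smooth muscle marker list (8 genes) averaged 7.07 to 8.80 and the endothelial list (8 genes) 5.94 to 6.86 on the log2(CPM + 0.5) scale in the 24 libraries, where CPM is the count scaled to library size. Other tissues varied between libraries. The sympathetic ganglion list (13 genes) averaged 1.34 in vehicle library C5 and 3.84 in tamoxifen library C35 against at least 6.81 in the other 22, and T cell markers (10 genes) summed to 356.1 CPM in E2 library C9 against at most 52.2 CPM elsewhere. Thyroid and parathyroid markers summed to 2989.2 CPM in E4 library C38 against at most 132.4 CPM in the others. The macrophage list (12 genes, none at 0 in any library) summed to 659.7 to 1190.0 CPM in vehicle, 1109.2 to 1671.1 in E2, 491.5 to 899.3 in E4 and 620.6 to 894.3 in tamoxifen libraries. Of its 12 genes, 11 were higher with E2 than with vehicle (median log2 fold change 0.85). In whole arteries, more cells of a type and more RNA per cell cannot be told apart.

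Every member was detected in each of the 24 libraries, with at least 11 counts. On the RPKM scale (CPM per kilobase of exon, mean of 24 libraries), Ifi27l2a, which encodes a small interferon-inducible protein of the ISG12 family, had the top level of the 39 at 174.3 RPKM (68.8 to 394.4 across libraries). Bst2, which encodes tetherin and holds budding virus at the cell surface, followed at 46.7 RPKM (31.9 to 77.4), and Ifit3 at 38.5 RPKM (24.8 to 88.1). These ranges overlap between neighbours in the order. At the other end, Oas3 stood at 0.232 RPKM (0.0630 to 0.688), Ifi44 at 0.805 RPKM (0.463 to 1.27) and Oasl1 at 0.991 RPKM (0.427 to 1.96).

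For most members the ranges of the 4 groups overlapped. Among the transcription factors, Stat2, a partner of Irf9 in the type I complex, averaged 71.4 ± 9.21, 77.7 ± 10.9, 71.4 ± 4.33 and 81.5 ± 24.6 CPM in vehicle, E2, E4 and tamoxifen arteries (SD, n = 6 each). Irf7, the amplifier of interferon-alpha transcription, averaged 18.2 ± 3.05, 22 ± 4.56, 17.8 ± 3.47 and 25 ± 8.71 CPM in the same order. The vehicle, E2 and E4 ranges of both genes overlapped.

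In the ISG15 system, Isg15 averaged 8.13 ± 1.28, 9.65 ± 2.11, 6.88 ± 1.18 and 9.95 ± 5.08 CPM in the same order of groups, and Usp18 10 ± 1.86, 10.9 ± 2.41, 9.16 ± 1.71 and 13.7 ± 8.67 CPM. Herc6, the ligase that attaches ISG15 in mice, ran from 12.7 to 30.9 CPM over all libraries. Both ends of the Herc6 range were tamoxifen libraries.

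Of the direct effectors, Mx1 averaged 6.03 ± 1.22, 7.57 ± 3.71, 4.63 ± 1.46 and 7.79 ± 5.32 CPM, Rsad2 22.4 ± 3.66, 23.6 ± 3.48, 20.7 ± 2.25 and 25.8 ± 7.28 CPM and Bst2 36.8 ± 7.52, 47.9 ± 6.26, 35.9 ± 9.35 and 48.1 ± 11.6 CPM. Among the GTPases, Gbp2 averaged 64 ± 12.6, 73.3 ± 25.7, 54.4 ± 15.3 and 64.8 ± 11.9 CPM and Igtp 43.8 ± 9.94, 52.5 ± 22.9, 36.6 ± 7.76 and 47.9 ± 14.5 CPM. The tamoxifen SD exceeded the vehicle SD for Mx1, Rsad2, Bst2 and Igtp, and the E2 SD did so for both GTPases. Ifih1, Dhx58, Mx2, Gbp3, Gbp7, Ifi44, Ifi35 and Xaf1 passed in none of the 6 comparisons, with log2 fold changes from -0.42 to 0.55.

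The average of the 39 members on the log2(CPM + 0.5) scale was 4.51 ± 0.13 in vehicle, 4.65 ± 0.27 in E2, 4.31 ± 0.14 in E4 and 4.63 ± 0.38 in tamoxifen libraries (SD, n = 6 each). All 4 groups overlapped on this summary, and the lowest and the highest of the 24 libraries were both tamoxifen libraries (C35 at 4.11 and C13 at 5.26).

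**Figure D1:**
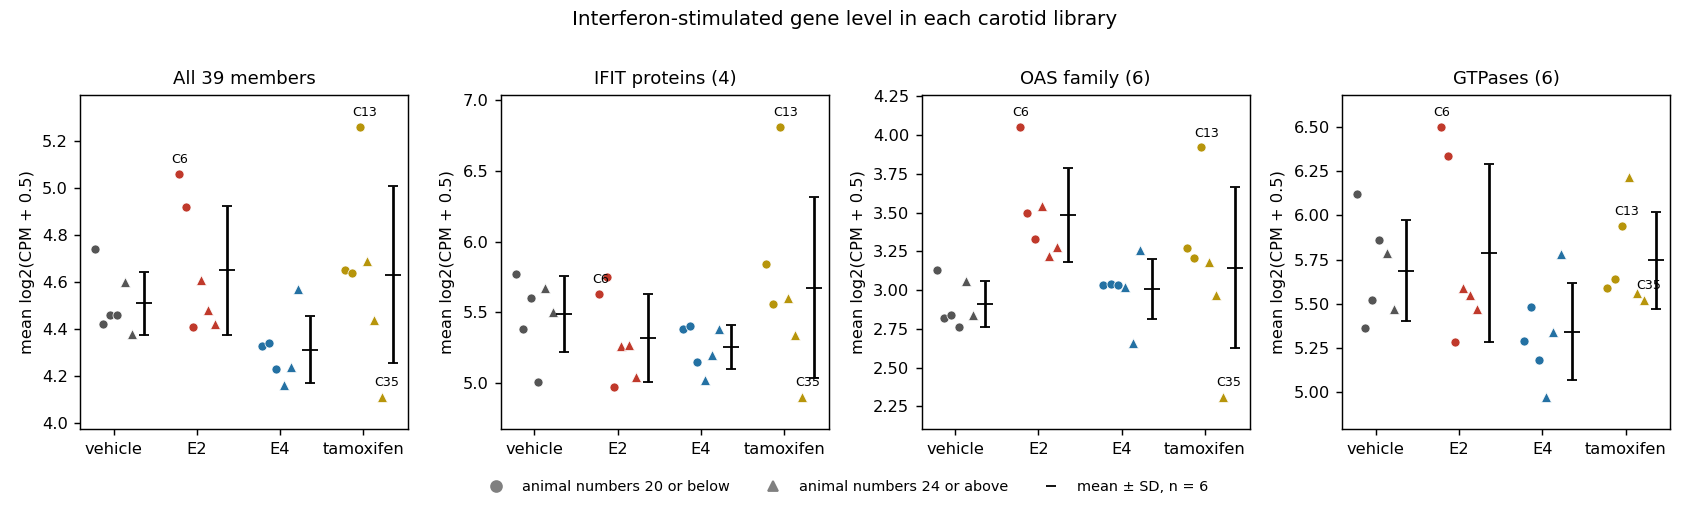
Mean log2(CPM + 0.5) over all 39 members and over 3 role groups, with 1 symbol per library (circles for animal numbers of 20 or below, triangles for 24 or above) and the mean ± SD of 6 libraries beside each group. Tamoxifen C13 lies above all other libraries for the IFIT proteins (6.81), whereas E2 C6 has the top GTPase level (6.50), and the OAS family lies higher in all E2 libraries (3.22 to 4.05) than in any vehicle library (2.76 to 3.13).

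With E2, the OAS genes Oas2 and Oas3 were higher and Ifi27l2a was lower than with vehicle, and 36 of the 39 members did not pass the test. In edgeR (quasi-likelihood fit, Benjamini-Hochberg adjusted p under 0.05 over 25056 genes), 2 members were higher and 1 was lower, where 4.14% of all genes were called (2.87% higher, 1.27% lower). At 3 of 39 members, the count is too small to set apart from that background. The median log2 fold change of the members was 0.14 beside 0.01 for all genes. It was 0.04 without E2 C6, 0.08 without E2 C8 and -0.03, with 17 of 39 above 0, without both.

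Oas2 encodes a synthetase that makes 2-5A, the activator of the RNA-degrading enzyme RNase L. It measured 11.9, 13.9 and 23.3 CPM (lowest, median and highest library) in vehicle and 20.5, 25.9 and 39.6 CPM in E2 arteries. Vehicle library C5 reached into the E2 range, while the other 5 vehicle libraries stayed at or below 14.9 CPM. The means were 15.1 ± 4.16 and 27.2 ± 7.17 CPM (SD, n = 6), a log2 fold change of 0.84 ± 0.19 (SE, adjusted p = 0.00738). Oas2 (ENSMUSG00000032690) lies on the minus strand of GRCm38 at chr5:120730333-120749853.

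Oas3, another 2-5A synthetase with long repeated domains, was present at few counts. It measured 0.807, 0.921 and 1.35 CPM in vehicle and 1.22, 2.05 and 4.86 CPM in E2 arteries, a log2 fold change of 1.29 ± 0.35 (adjusted p = 0.0337). The groups touched at their edges. Leaving out vehicle C3, C4, C5 or C25, or E2 C6 or C9, ended this call (adjusted p 0.0513 to 0.11), whereas the Oas2 call held without any 1 of the 24 libraries. Without E2 C6 and C8 together, both calls ended, with Oas2 at 0.64 (adjusted p = 0.0641) and Oas3 at 0.98 (adjusted p = 0.136). Without vehicle C5 and tamoxifen C35 together, 5 members passed, where 1665 of all 25210 genes did in place of 1037 of 25056.

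The rest of the OAS family stood in the same direction with E2 without passing. Oas1a, a 2-5A synthetase, did not overlap between the groups (7.01 to 9.14 CPM in vehicle, 9.44 to 17.3 CPM in E2) at a log2 fold change of 0.57 ± 0.20 (adjusted p = 0.125). Oasl1, an OAS-like protein that represses translation of Irf7, did not overlap either (1.72 to 2.29 against 2.37 to 5.11 CPM, log2 fold change 0.75 ± 0.22, adjusted p = 0.0563). Over all genes, 1.99% lay wholly above vehicle in E2. All 6 family members had a fold change above 0, with a median of 0.66 on the log2 scale, and Oasl2 had the lowest at 0.18 ± 0.26.

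Ifi27l2a (ENSMUSG00000079017, chr12:103442167-103443680, minus strand) went the other way. It measured 94.8, 131.0 and 182.6 CPM in vehicle and 45.2, 61.0 and 83.1 CPM in E2 arteries, so that every E2 library lay below every vehicle library. The mean fell from 133.8 ± 38.5 to 62.6 ± 15.3 CPM (SD, n = 6), a log2 fold change of -1.10 ± 0.20 (adjusted p = 0.00149). Over all genes, 0.830% lay wholly below vehicle in E2. The call held without any 1 library.

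Macrophage markers (11 of 12) were higher with E2, as were the OAS values. With the mean macrophage level as a covariate, the Oas2 log2 fold change was 0.08 (adjusted p = 0.814) and that of Oas3 1.02 (adjusted p = 0.243), whereas that of Ifi27l2a was -1.81 (adjusted p = 0.000425). In that fit 1 member passed, Ifi27l2a, and 3271 of all 25056 genes did, in place of 1037 without the covariate. The 6 E2 libraries had macrophage means of 5.78 to 6.24 and the vehicle libraries 5.08 to 5.75. The covariate and the treatment therefore cannot be told apart in this comparison. Within vehicle, E2 and E4, the library with the top macrophage mean also had the top Oas2 level (C5 at 5.75 and 23.3 CPM, C6 at 6.24, level with C8, and 39.6 CPM, and C39 at 5.47 and 17.1 CPM). Within tamoxifen the order was the opposite, with the top macrophage mean (5.41) beside the lowest Oas2 level (11.4 CPM) in C35, and the lowest mean (5.06) beside the highest Oas2 level (19.7 CPM) in C13.

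**Figure D2:**
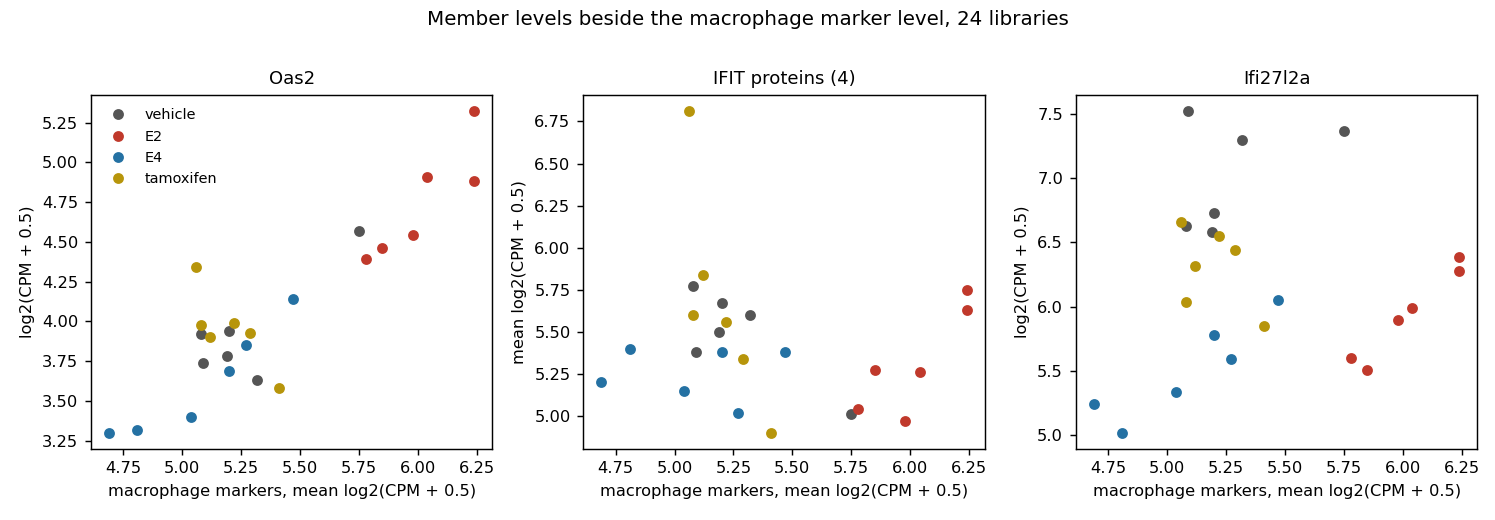
Level of Oas2, of the 4 IFIT proteins (mean) and of Ifi27l2a against the mean of 12 macrophage markers, all as log2(CPM + 0.5), with 1 point per library coloured by group. The E2 libraries lie highest in macrophage mean (5.78 to 6.24), the library with the top macrophage mean has the top Oas2 level in vehicle, E2 and E4 but the lowest in tamoxifen (C35), the IFIT level of tamoxifen C13 (6.81) stands apart at a macrophage mean of 5.06, and Ifi27l2a is lower in E2 than in vehicle at a higher macrophage mean.

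The IFIT proteins, which bind viral RNA ends and block its translation, did not pass with E2, and their fold changes were below 0. Ifit1 measured 21.2, 47.0 and 60.9 CPM in vehicle and 30.6, 41.1 and 55.9 CPM in E2 arteries (log2 fold change -0.06 ± 0.33, adjusted p = 0.976). The 4 IFIT genes had log2 fold changes from -0.25 to -0.06, and Ifit3 fully overlapped between groups (56.9 to 81.4 against 43.6 to 93.9 CPM). None passed.

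The remaining members overlapped between E2 and vehicle. The transcription factors Stat2, Irf9 and Irf7 had log2 fold changes of 0.12 ± 0.15, 0.18 ± 0.10 and 0.27 ± 0.18, and Isg15, the ubiquitin-like modifier, and Usp18, the protease that removes it, 0.25 ± 0.22 and 0.12 ± 0.24. Among the direct effectors, Mx1 (of the dynamin-like GTPase family) stood at 0.33 ± 0.36. Rsad2 (viperin, which makes a chain-terminating nucleotide) stood at 0.08 ± 0.14 and Bst2 at 0.38 ± 0.16. The GTPases Gbp2, which coats the vacuoles of intracellular parasites, and Igtp stood at 0.20 ± 0.20 and 0.26 ± 0.23. None of these 10 passed (adjusted p 0.222 to 0.908). The sensor Zbp1 stood higher, at 0.77 ± 0.25, without passing in edgeR (adjusted p = 0.0904). It passed by DESeq2, where 1547 of all 25056 genes did. Iigp1 stood at 0.43 ± 0.35 (adjusted p = 0.637).

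With E4, Ifi27l2a was lower than with vehicle by a wide step and Parp14, Eif2ak2, Trim30a and Ddx58 by small ones. Of the 39, these 5 were lower and none was higher by the same edgeR test, where 22.0% of all genes were called (9.50% higher, 12.5% lower). The members' share, 5 of 39, is therefore near the background of lower genes. Their median log2 fold change was -0.23 beside -0.01 for all genes, with 32 of 39 below 0, and -0.14 without vehicle C2.

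Ifi27l2a had the largest difference of the 39, at 31.9, 43.9 and 65.7 CPM in E4 arteries against the vehicle values above. No E4 library reached the vehicle range, and the log2 fold change was -1.53 ± 0.21 (adjusted p = 0.000105). Of the 39 it alone passed a log2 fold change beyond 1 as well, a rule met by 2.51% of all genes.

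Parp14, a mono-ADP-ribosyltransferase, was lower by a small step with little spread. It measured 64.4, 72.7 and 82.6 CPM in vehicle and 54.4, 57.0 and 63.2 CPM in E4 arteries, with no overlap (log2 fold change -0.35 ± 0.09, adjusted p = 0.00956). It lies at chr16:35832874-35871544 (minus strand). Over all genes, 4.07% lay wholly below vehicle in E4.

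The other 3 passed narrowly and overlapped between groups. Eif2ak2, the RNA-activated kinase PKR that stops translation, averaged 38.3 ± 3.10 CPM in vehicle and 28.1 ± 4.24 CPM in E4 arteries (log2 fold change -0.45 ± 0.15, adjusted p = 0.0403). Trim30a, a ubiquitin ligase, averaged 21.4 ± 3.80 and 15.9 ± 2.63 CPM (-0.43 ± 0.16, adjusted p = 0.0493), and Ddx58, the RNA sensor RIG-I, 38 ± 2.96 and 31.9 ± 2.29 CPM (-0.25 ± 0.09, adjusted p = 0.0495). The Eif2ak2 call ended without vehicle C3, C4, C5 or C24, or E4 C19, C20, C36, C38 or C39 (adjusted p 0.053 to 0.106). The Trim30a call held only without vehicle C4, E2 C6, C8, C27 or C29, tamoxifen C13 or E4 C39, and ended in the other 17 (up to 0.13), and the Ddx58 call held only without vehicle C3, tamoxifen C13 or E4 C39 and ended in the other 21 (up to 0.105). The Ifi27l2a and Parp14 calls held without any 1 library, and 2 members passed without vehicle C5 or C24 or without E4 C19, C20, C36 or C38. The count was 3 without vehicle C2, C3, C4 or C25, E2 C9 or C26, E4 C16 or any tamoxifen library other than C13. The share of all genes in these fits is not given here.

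B cell markers (9 of 10) and fibroblast markers (6 of 8) were also lower with E4 than with vehicle. Adipocyte (3 of 8), macrophage (2 of 12) and T cell markers (2 of 10) were lower too. All 10 T cell markers had a fold change below 0 (median -1.67). Of 8 endothelial markers 2 were lower and 1 was higher, and of 8 smooth muscle markers 1 was higher. The B cell list summed to 9.19 to 47.3 CPM in vehicle and 6.20 to 11.2 CPM in E4 libraries. With the B cell mean as a covariate, 1 member passed (Ifi27l2a, log2 fold change -1.31, adjusted p = 0.0323), and only 108 of all genes did. Parp14, Ddx58, Eif2ak2 and Trim30a were then at -0.42, -0.28, -0.36 and -0.28 (adjusted p 0.13 to 0.639). The member median was -0.24, in place of -0.23. With the macrophage mean as a covariate, Ifi27l2a (-1.39, adjusted p = 4.23e-05) and Parp14 (-0.31, adjusted p = 0.0264) passed, as did 4098 of all 25056 genes. The part of the fibroblast, adipocyte, T cell, endothelial and smooth muscle lists in these results was not tested.

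Members that did not pass included some with a fold change above 0 in E4. Oasl2, an OAS-like protein, measured 35.1, 65.7 and 93.4 CPM in vehicle and 80.9, 89.3 and 92.7 CPM in E4 arteries (log2 fold change 0.46 ± 0.26, adjusted p = 0.199), the top value of the 39 in this comparison. The E4 libraries lay close together inside the upper part of the vehicle range. Without tamoxifen C13 and C35 together, Oasl2 passed as higher in E4, among 6 members and 6145 of all 25562 genes. Ifit1 and Ifit3 stood at -0.26 ± 0.33 and -0.33 ± 0.21, Isg15 at -0.24 ± 0.22, Usp18 at -0.13 ± 0.25, Mx1 at -0.38 ± 0.36, Rsad2 at -0.11 ± 0.14, Bst2 at -0.03 ± 0.16, Gbp2 at -0.23 ± 0.20 and Igtp at -0.26 ± 0.23. Stat2, Irf9 and Irf7 stood at 0.00 ± 0.15, -0.20 ± 0.10 and -0.03 ± 0.18, and Oas2 at -0.33 ± 0.19. None of these passed (adjusted p 0.141 to 0.998).

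**Figure D3:**
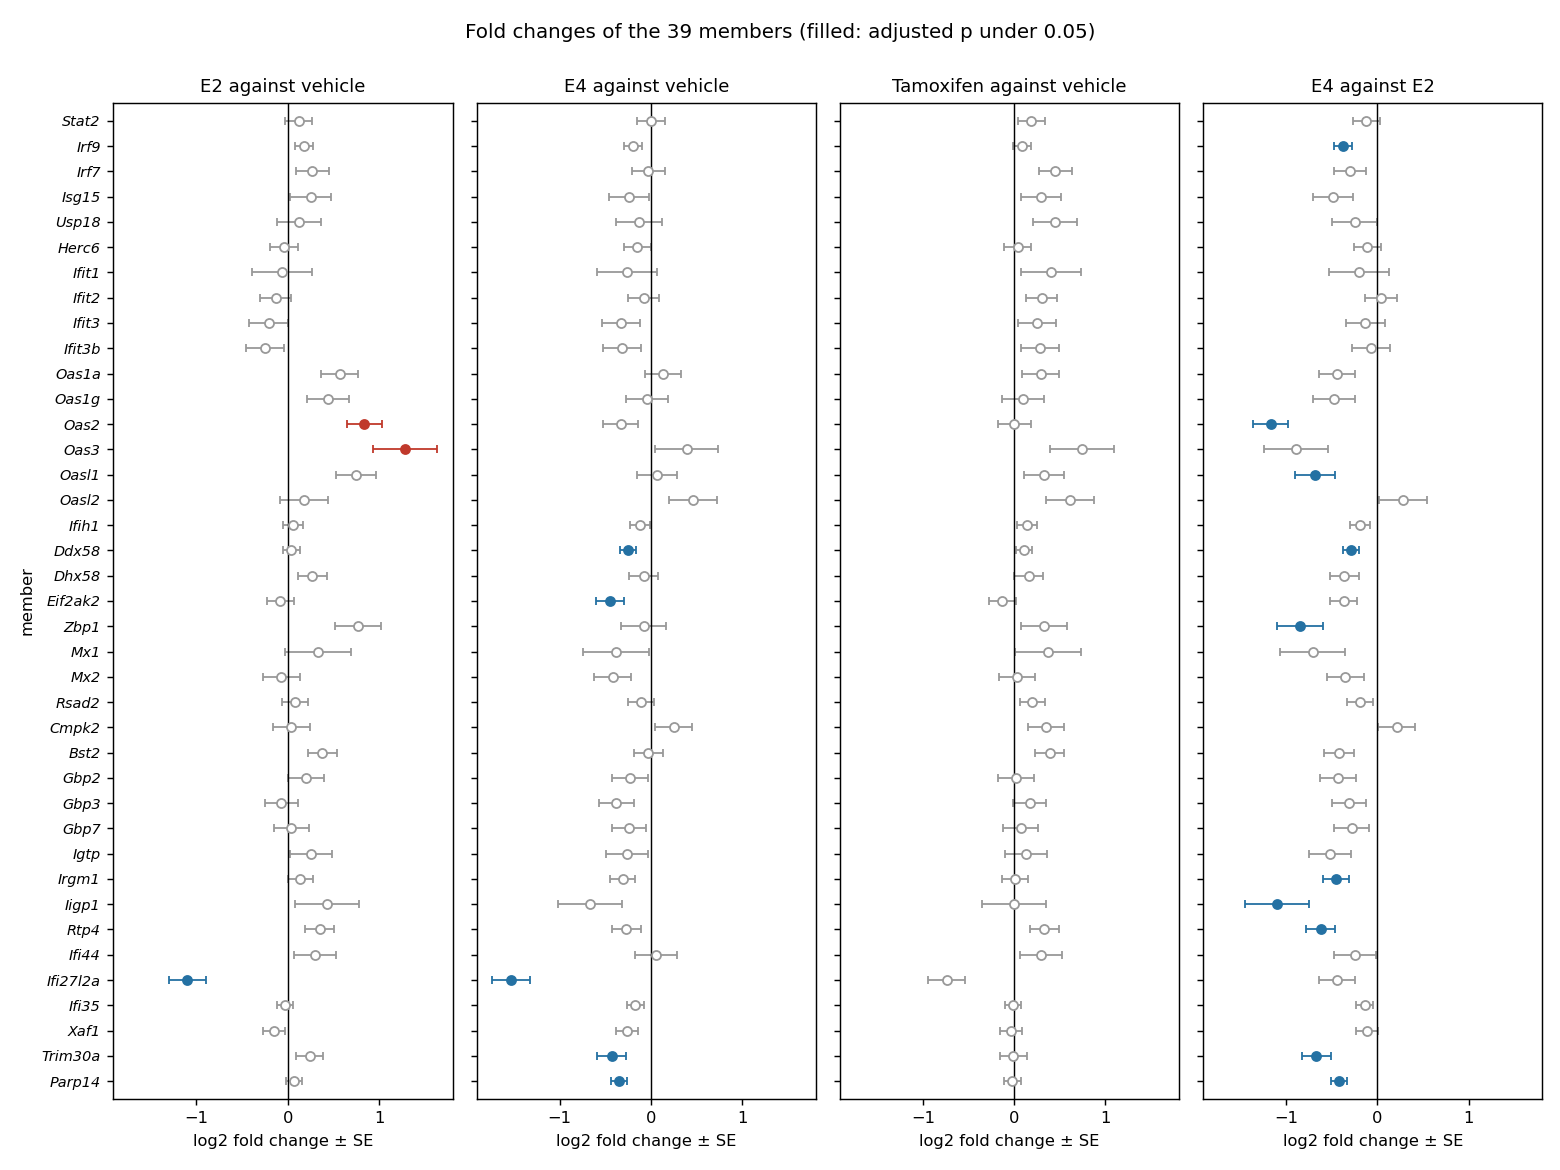
Log2 fold change ± SE of the 39 members in 4 comparisons, with filled points for adjusted p under 0.05 (red higher, blue lower) and open grey points for the rest. Filled points number 3, 5, 0 and 10, and Ifi27l2a is far to the left in both estrogen comparisons with vehicle.

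With tamoxifen, no member passed against vehicle by edgeR, where 2.23% of all genes were called. At an unadjusted p under 0.05 there were 6 members, and 21.0% of all genes. DESeq2 called 1 member, Ifi27l2a, and 1631 of all 25056 genes. The median log2 fold change of the members was 0.17, with 33 of 39 above 0, and without library C13 it was 0.02, with 21 above 0. Without C35 it was 0.27. Leaving out vehicle C2 or C25, E2 C29, tamoxifen C35 or E4 C39 gave 1 call in place of 0.

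Ifi27l2a measured 57.1, 82.8 and 100.4 CPM in tamoxifen arteries, and its range touched that of vehicle. The log2 fold change was -0.74 ± 0.20 (adjusted p = 0.0533), the lowest of the 39. Oas3 had the top value at 0.74 ± 0.35 (adjusted p = 0.229). Oas2 averaged 15.2 ± 2.65 CPM, a log2 fold change of 0.00 ± 0.18 (adjusted p = 0.997).

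Many other members had wide tamoxifen ranges. Ifit1 ran from 16.2 through a median of 48.9 to 150.1 CPM (log2 fold change 0.40 ± 0.33), Usp18 from 9.81 through 10.3 to 31.4 CPM (0.45 ± 0.24) and Mx1 from 2.16 through 6.51 to 17.1 CPM (0.37 ± 0.36). In each of these 3 the upper end was a single library, C13. Stat2, Irf9 and Irf7 stood at 0.19 ± 0.15, 0.09 ± 0.10 and 0.45 ± 0.18, Isg15 at 0.29 ± 0.22, Ifit3 at 0.25 ± 0.21, Rsad2 at 0.20 ± 0.14, Bst2 at 0.39 ± 0.16, Gbp2 at 0.02 ± 0.20 and Igtp at 0.13 ± 0.23. Their adjusted p-values were 0.144 to 0.973.

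E2 and E4 were given at different doses, so their values are set side by side here and the contrast is one of these 2 regimens. Set against E2, E4 arteries had lower values for 10 members and higher values for none that passed, where 12.6% of all genes were called (3.55% higher, 9.05% lower). That is 25.6% of the 39. The median log2 fold change was -0.36 beside -0.01 for all genes, and 36 of 39 members were below 0. Without E2 C6 and C8 together the median was -0.14. At an unadjusted p under 0.05 there were 20 members, and 30.2% of all genes. The vehicle and tamoxifen libraries enter only through the shared fit (its scaling, filter and estimate of the spread), and the E2 and E4 libraries are those already described.

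Oas2 led, at 9.32, 11.2 and 17.1 CPM in E4 against 20.5, 25.9 and 39.6 CPM in E2 arteries. The groups did not overlap, and the log2 fold change was -1.17 ± 0.19 (adjusted p = 0.000416). Parp14 did not overlap either (54.4 to 63.2 against 65.7 to 95.3 CPM, -0.42 ± 0.09, adjusted p = 0.0052), nor did Ddx58 (27.9 to 34.6 against 35.5 to 42.3 CPM, -0.29 ± 0.09, adjusted p = 0.0396). Over all genes, 4.13% lay wholly below E2 in E4.

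The other 7 overlapped. Trim30a averaged 25.2 ± 6.86 CPM in E2 and 15.9 ± 2.63 CPM in E4 (-0.67 ± 0.16, adjusted p = 0.00842), Rtp4, a receptor-transporting chaperone induced by interferon, 24.5 ± 5.06 and 16 ± 2.20 CPM (-0.62 ± 0.16, adjusted p = 0.0149), and Irf9 49.0 ± 7.35 and 37.7 ± 2.93 CPM (-0.38 ± 0.10, adjusted p = 0.0164). Zbp1, a sensor of Z-form nucleic acid that triggers cell death, had a log2 fold change of -0.85 ± 0.25 (adjusted p = 0.0317). Irgm1, a regulator of the GTPases that coat vacuoles, stood at -0.45 ± 0.14 (adjusted p = 0.043), and Oasl1 at -0.68 ± 0.22 (adjusted p = 0.0481). These 6 come from 5 role groups.

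Iigp1, a GTPase that disrupts parasite vacuoles, had the widest E2 spread of the 10. It measured 37.7, 52.6 and 199.8 CPM in E2 and 26.3, 37.4 and 67.1 CPM in E4 arteries (log2 fold change -1.10 ± 0.35, adjusted p = 0.0429). The upper E2 values came from C6 and C8. Without those 2 libraries the log2 fold change was -0.25 (adjusted p = 0.662).

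The E4 against E2 count changed with single libraries. Without E2 C6 and C8 together, 1 member passed (Oas2, -0.97, adjusted p = 0.00734), where 795 of all 25517 genes did in place of 3157 of 25056. The share of all genes fell too, and 1 of 39 is near what was left of it. Leaving out 1 library at a time gave 5 to 11, with 5 without E2 C6, E2 C8, E4 C16, E4 C19, E4 C20 or E4 C36 and 6 without E4 C38. The calls of Oas2, Parp14, Trim30a, Rtp4 and Irf9 held without any 1 library. Those of Ddx58 and Zbp1 each ended without E2 C6 or C8 or E4 C16, C19, C20, C36 or C38, and that of Ddx58 also without E2 C9 (adjusted p 0.0513 to 0.0997). That of Irgm1 ended without E2 C6 or C8, tamoxifen C12 or E4 C16, C19, C20 or C36 (0.0515 to 0.138), that of Iigp1 without these, vehicle C24 or E4 C38 (0.0502 to 0.171), and that of Oasl1 held only without E2 C27 or C29 or tamoxifen C13 or C35 (0.0501 to 0.133 in the other 20).

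Macrophage markers (11 of 12) and T cell markers (10 of 10) were lower in E4 than in E2 arteries too, with summed macrophage levels of 491.5 to 899.3 against 1109.2 to 1671.1 CPM. The 2 ranges do not overlap. Fibroblast markers (5 of 8) and neutrophil markers (5 of 9 tested) were lower as well, with fibroblast means of 8.46 to 9.22 against 9.13 to 9.70, and the ganglion mean was 7.94 to 8.69 in E4 against 6.81 to 8.23 in E2 libraries, with none of its 13 genes passing. With the macrophage mean as a covariate no member passed, and 0 of all 25056 genes did, so treatment and macrophage level cannot be told apart here. In that fit Oas2 was at -0.23 (adjusted p = 0.626), Iigp1 at 0.01 (adjusted p = 0.996) and Trim30a at -0.07 (adjusted p = 0.898). Ddx58 stayed at -0.29, and Rtp4, Oasl1 and Irgm1 were at -0.41, -0.34 and -0.33. Zbp1, Parp14 and Irf9 were at -0.26, -0.22 and -0.21 (adjusted p 0.336 to 0.78 from Ddx58 to Irf9). The member median was -0.28, in place of -0.36. Without E2 C9, the library with a high T cell level, and E4 C38, that with a high thyroid and parathyroid level, together, 6 members and 1271 of all 25181 genes passed.

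Members at or above 0 in E4 against E2 were Oasl2 (0.28 ± 0.26), Cmpk2 (0.21 ± 0.20), a mitochondrial nucleotide kinase, and Ifit2 (0.04 ± 0.17). None passed. Ifit1 and Ifit3 stood at -0.20 ± 0.33 and -0.13 ± 0.21, Isg15 at -0.49 ± 0.22, Usp18 at -0.25 ± 0.25, Mx1 at -0.71 ± 0.36, Rsad2 at -0.19 ± 0.14, Bst2 at -0.42 ± 0.16, Gbp2 at -0.43 ± 0.20, Igtp at -0.52 ± 0.23, Stat2 at -0.12 ± 0.15 and Irf7 at -0.30 ± 0.18 (adjusted p 0.0864 to 0.707). The 4 IFIT genes lay between -0.20 and 0.04, with standard errors of 0.17 to 0.33.

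**Figure D4:**
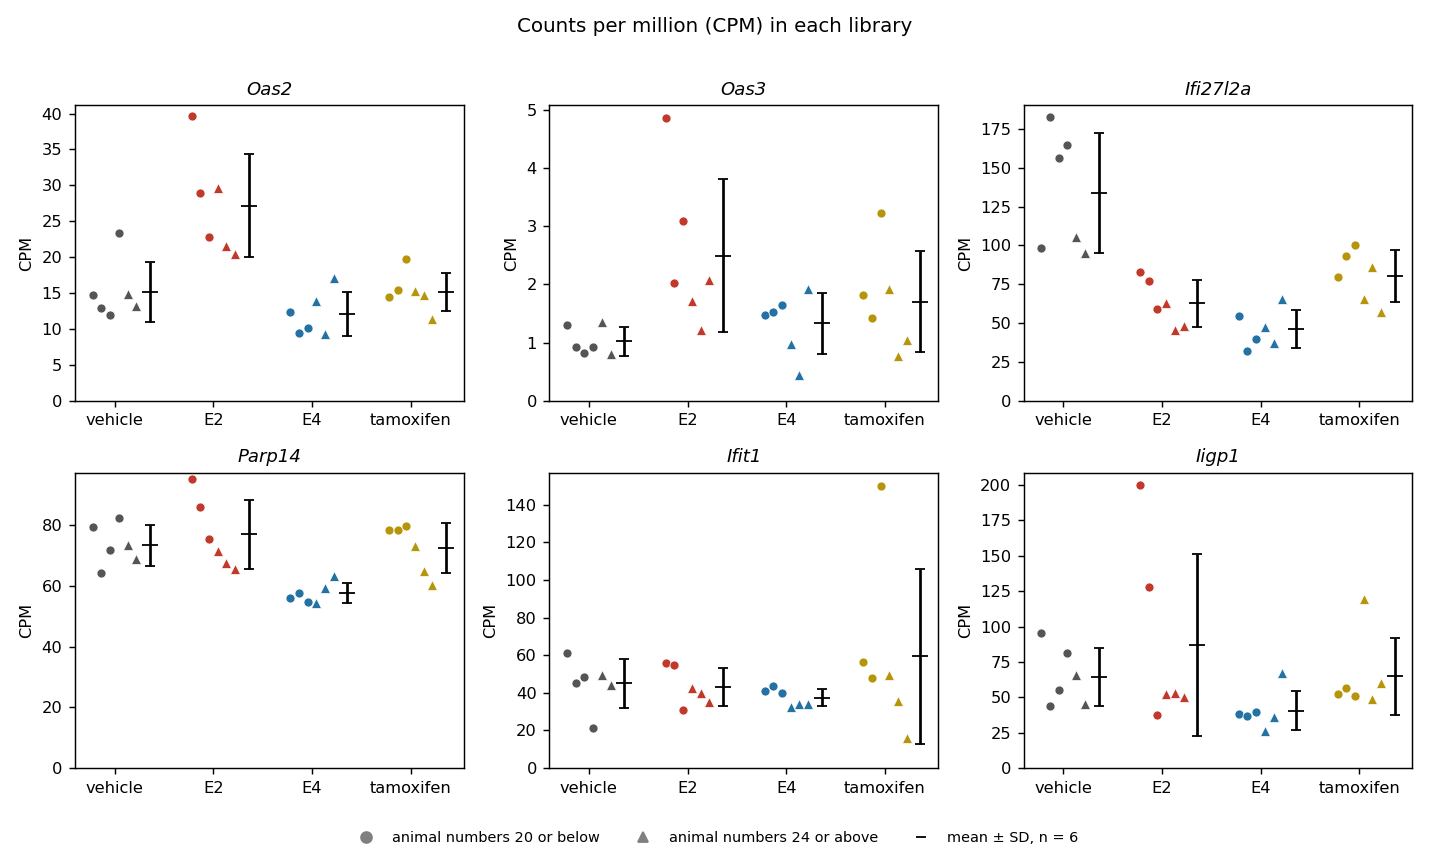
CPM of 6 members in each library (circles for animal numbers of 20 or below, triangles for 24 or above), with the mean ± SD of 6 libraries beside each group. The mean of Oas2 is highest in E2 (27.2 CPM), that of Ifi27l2a in vehicle (133.8 CPM), that of Parp14 is lowest in E4 (57.6 CPM), and single libraries stand out for Ifit1 (tamoxifen C13, 150.1 CPM) and Iigp1 (E2 C6, 199.8 CPM).

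Tamoxifen arteries differed from E2 arteries in 1 member by edgeR, where 6.40% of all genes were called (4.48% lower, and 3.12% wholly below E2). Oas2 was lower, at 11.4, 15 and 19.7 CPM against 20.5, 25.9 and 39.6 CPM, without overlap (log2 fold change -0.84 ± 0.19, adjusted p = 0.00658). With the macrophage mean as a covariate it was at 0.04 (adjusted p = 0.937), and 11 of 12 macrophage markers were lower with tamoxifen than with E2. The top value was that of Ifit3b, a near copy of Ifit3, at 0.53 ± 0.21 (adjusted p = 0.144). Without vehicle C5 and tamoxifen C35, the 2 libraries low in ganglion markers, 5 members passed, namely Oas2 lower and Ifit2, Ifit3b, Oasl2 and Cmpk2 higher. In that fit 3332 of all 25210 genes passed, a share near that of the members.

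Against E4, no member passed with tamoxifen, where edgeR called 0.343% of all genes. All 39 members nevertheless had a fold change above 0, from 0.09 (Cmpk2) to 0.80 (Ifi27l2a), with a median of 0.33 on the log2 scale beside -0.00 for all genes. In the first number series (animals up to 20) the median was 0.54 with 39 above 0, and in the second (from 24) 0.09 with 27 above 0. At an unadjusted p under 0.05 there were 19 members, and 9.12% of all genes. DESeq2 called 3 (Ddx58, Rtp4 and Ifi27l2a) and 204 of all 25056 genes, and leaving out tamoxifen C35 or E4 C39 gave 1 edgeR call. These libraries also enter the comparisons above. Without tamoxifen C13 the median was 0.21 with 35 above 0, and without C13 and C35 together it was 0.26. Ddx58 alone did not overlap (36.4 to 56.6 against 27.9 to 34.6 CPM, adjusted p = 0.102), and 0.495% of all genes lay wholly above E4.

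Tamoxifen library C13 stood apart within its group. It had the top value of all 24 libraries in 23 of the 39 members (59.0%), while it was highest for 3.05% of all tested genes. Within the 6 tamoxifen libraries it was highest in 35 members, against 18% of all genes. In the other groups too, 1 library was highest in most members (vehicle C2 in 24, E2 C6 in 26 and E4 C39 in 24). Of all genes, these libraries were highest within their groups in 19.1%, 10.6% and 24.4%. Usp18 reached 31.4 CPM in C13 against 9.81 to 10.6 in the other 5, Ifit1 150.1 against 16.2 to 56.5 CPM, and Irf7 42.4 against 18.5 to 23.4 CPM. Each of these 3 values lay above all other tamoxifen libraries.

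The elevation in C13 differed between role groups. Relative to the median of the other 5 tamoxifen libraries, the ISG15 system stood at a median of 2.37-fold (1.44 to 3.04), the IFIT proteins at 2.25-fold (2.21 to 3.12) and the OAS family at 1.86-fold (1.34 to 2.26). The GTPases stood at 1.28-fold (0.905 to 1.69), with Gbp2 at 1.01-fold and Iigp1 at 0.905-fold. The lowest IFIT ratio (2.21-fold) exceeded the highest GTPase ratio in this animal. The macrophage mean of C13 was the lowest of the tamoxifen group (5.06), as was its smooth muscle mean (7.43). Its T cell (1.69, summed 32.2 CPM), ganglion (8.57) and plasmacytoid dendritic cell (1.19) means were the highest of that group. The plasmacytoid list is not read here as a level of that cell type. Its Pacsin1 reached 81.8 CPM, whereas Cox6a2, Klk1 and Cd300c reached at most 1.31, 0.365 and 0.168 CPM in any library. Its sum was 82.5 CPM in C13, 82.7 in C11 and 8.52 in C35, which had the lowest ganglion mean of the group (3.84). The part of these marker levels in the values of C13 was not tested. These are values of 1 animal, with no test.

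E2 libraries C6 and C8 showed another profile. C6 had the top value of the 24 in 11 members (28.2%, against 2.22% of all genes). C8 had it in 3 members (7.69%), near the 6.39% of all genes. Relative to the median of the other 4 E2 libraries, C6 and C8 stood at 1.77-fold and 1.70-fold for the GTPases, 1.69-fold and 1.17-fold for the OAS family and 1.46-fold and 1.63-fold for the IFIT proteins. These libraries also held the 2 top macrophage means (6.24 each). Neutrophil markers summed to 94.5 CPM in C6 against at most 42.9 CPM in the other 23 libraries, and NK cell markers were highest of the 24 in C8 (9.85 CPM). The part of these levels in their profile was not tested.

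At the low end, tamoxifen C35 was the lowest of the 24 libraries in 12 members (30.8%, against 9.51% of all genes), E4 C36 in 9 (23.1%, against 2.18%) and E4 C20 in 5 (12.8%, against 5.41%). In C35, Ifit1 was at 16.2 CPM and Mx1 at 2.16 CPM. That library also had the top smooth muscle (8.80), fibroblast (9.91) and endothelial (6.86) means of the 24, and the part of these levels was not tested. Vehicle C5, the other library with little ganglion signal, was lowest of the 24 in 1 member (2.56%, against 17.0% of all genes). Its mean over the 39 was 4.46 (4.38 to 4.74 in the other 5 vehicle libraries). Oasl2 was at 35.4 and 35.1 CPM in C35 and C5, against at least 52.8 CPM in the E2 and 80.9 CPM in the E4 libraries.

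**Figure D5:**
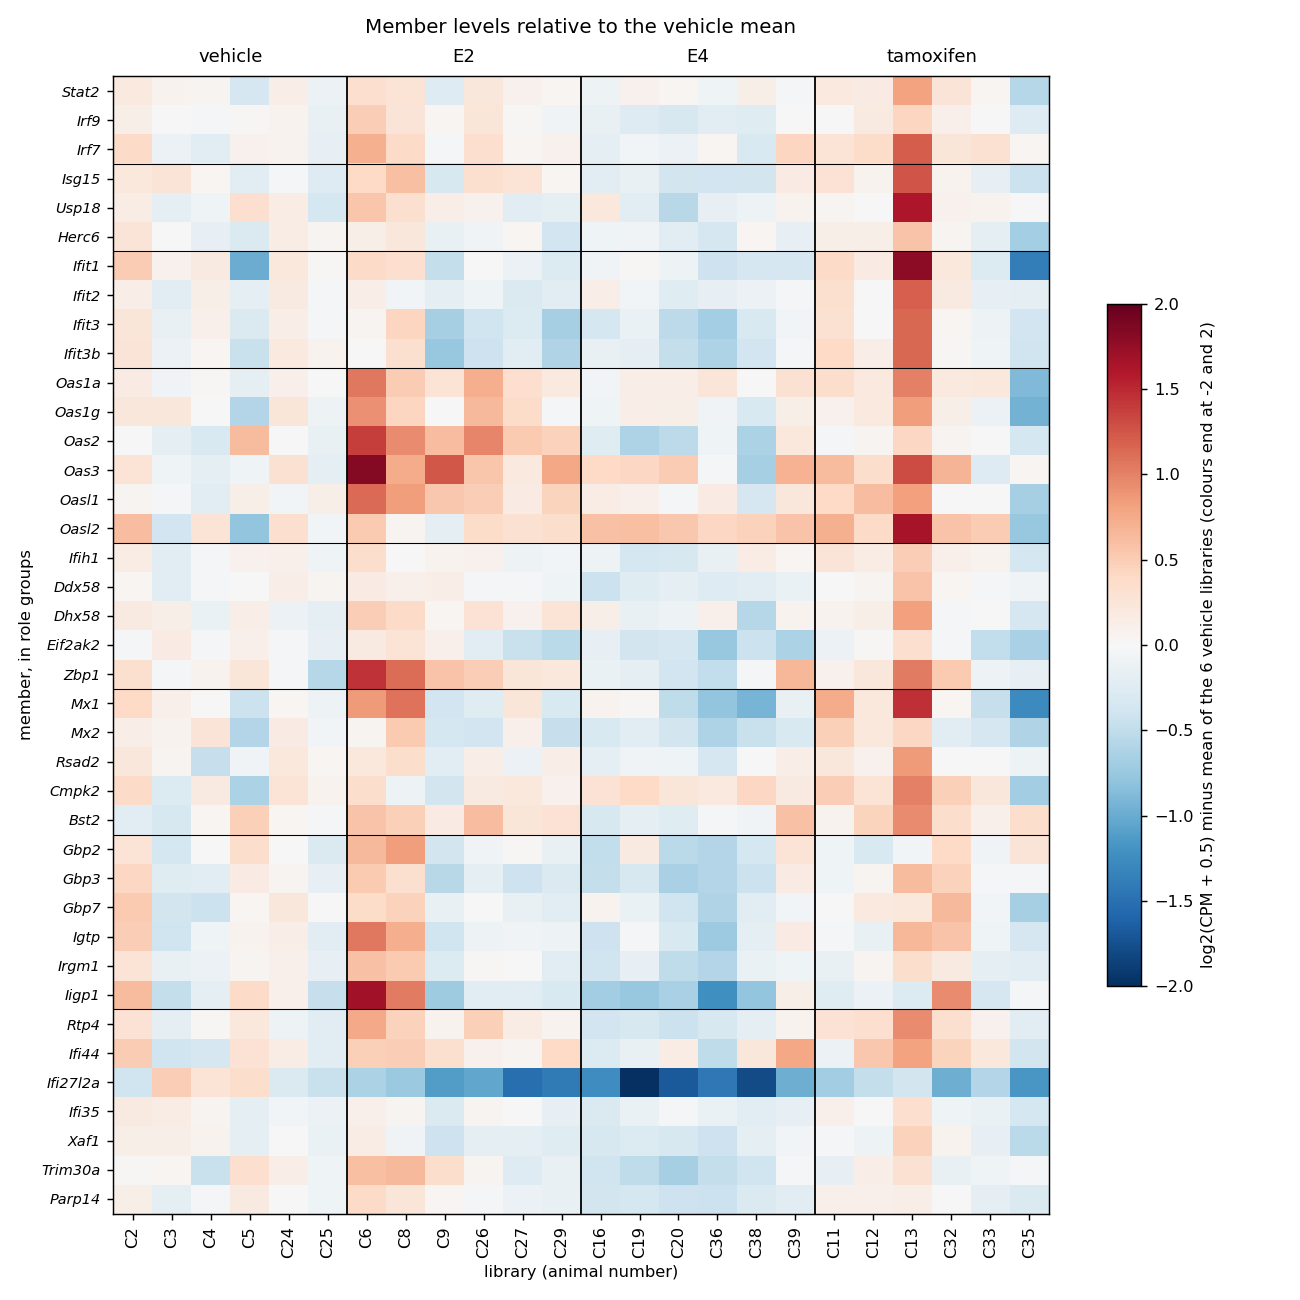
Level of each member in each library as log2(CPM + 0.5) minus the mean of the 6 vehicle libraries, with members in role groups (rows) and libraries in treatment groups (columns). Column C13 of tamoxifen is red from Stat2 to Bst2 and paler over the GTPases. Column C6 of E2 is red over the OAS genes and GTPases. The Ifi27l2a row is below the vehicle mean in all 12 estrogen libraries and in the 6 tamoxifen libraries (57.1 to 100.4 CPM).

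Animal numbers fall into 2 series (up to 20, and from 24), which the sources do not describe as a batch. C6, C8 and C13 belong to the first. Within the first series, 3 members passed in E2 against vehicle, 2 in E4 against vehicle, 0 in tamoxifen against vehicle and 10 in E4 against E2, where 341, 3078, 1 and 3172 of all 25474 genes tested were called. The 3 with E2 were Oas3, Oasl1 and Ifi27l2a. The 10 in E4 against E2 included Eif2ak2 and Ifi27l2a, and left out Ddx58 and Irgm1. Within the second series 0 passed in each of these, where 92, 5, 0 and 0 of all genes were called. Ifi27l2a was at -1.04 and -0.95 with E2 and at -1.84 and -0.98 with E4 in the first and second series, and Oas2 at 0.95 and 0.76 with E2, a call lost in both (adjusted p 0.0967 and 0.356). The medians of the 39 in the first and second series were 0.24 and -0.04 in E2 against vehicle, -0.25 and -0.13 in E4 against vehicle, 0.38 and -0.06 in tamoxifen against vehicle and -0.52 and -0.14 in E4 against E2. An edgeR test of the difference between series called 0 members, and 0 of all genes, in each of the 3 comparisons with vehicle (lowest adjusted p of a member 0.46). At an unadjusted p under 0.05 there were 2, 1 and 9 members for E2, E4 and tamoxifen, and 3.44%, 5.74% and 10.8% of all genes.

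Other genes of the pathway were read from lists. For their counts, the background over all genes was 2.87% higher and 1.27% lower with E2, 9.50% higher and 12.5% lower with E4 and 2.23% in either direction with tamoxifen, all against vehicle, and 9.05% lower in E4 against E2. Lists of this length hold few genes, and no count of theirs was tested against that background. Of 11 interferon ligand genes, none had enough counts to be tested, and Ifna1, Ifna2, Ifna4, Ifna5, Ifnl2 and Ifnl3 were at 0 in all 24 libraries. Ifnb1, the first type I interferon made by most cells, had at most 4 counts in any library, and Ifng at most 0.307 CPM. The receptors were well expressed, with Ifnar1 at 68.0 ± 5.88 CPM and Ifngr1 at 110.7 ± 15.3 CPM in vehicle (SD, n = 6).

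Of 9 receptor and kinase genes, 1 was higher with E2 and 1 lower with E4 against vehicle, the latter near the background. Jak1, the kinase shared by both receptor types, had a log2 fold change of 0.28 ± 0.05 with E2 (adjusted p = 0.00208). Ifnar1, a chain of the type I receptor, stood at -0.20 ± 0.06 with E4 (adjusted p = 0.0343). Ifngr1 did not pass (0.02 ± 0.12 and 0.00 ± 0.12).

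Of 8 further transcription factors, 3 were higher with E2, 3 higher and 2 lower with E4, and 1 higher with tamoxifen. Stat3, which relays interleukin-6 signals, was higher in all 3 comparisons with vehicle (0.40 ± 0.11, 0.74 ± 0.11 and 0.47 ± 0.11, adjusted p 0.0403, 0.000316 and 0.0326 for E2, E4 and tamoxifen). Irf4, a factor of lymphocytes and macrophages, was higher with E2 (1.53 ± 0.30, adjusted p = 0.00253) and E4 (1.56 ± 0.30, adjusted p = 0.00151). Irf1, an early interferon-gamma target, did not pass (-0.01 ± 0.09, -0.24 ± 0.09 and -0.09 ± 0.09, adjusted p 0.0675 with E4).

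Among 15 genes of nucleic acid sensing outside the 39, 2 were higher with E2, 3 lower with E4 and 0 changed with tamoxifen against vehicle. In E4 against E2, 7 were lower. Tlr8, an endosomal RNA receptor of myeloid cells, led with 1.16 ± 0.18 for E2 against vehicle (adjusted p = 0.000166) and -1.53 ± 0.18 for E4 against E2 (adjusted p = 2.57e-05). Tlr7, its neighbour in function, stood at 0.62 ± 0.16 and -0.85 ± 0.16 (adjusted p 0.029 and 0.0021). The adaptor Tmem173 (STING) was at -0.66 ± 0.14 in E4 against E2 (adjusted p = 0.00475).

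Of 7 inhibitors of the pathway, 2 were lower in E4 than in E2 arteries, with Ptpn6, a phosphatase of hematopoietic cells, at -1.01 ± 0.15 (adjusted p = 0.000168). Ptpn1, a phosphatase that acts on JAK kinases, was higher with E2, E4 and tamoxifen (0.33 ± 0.06, 0.38 ± 0.06 and 0.30 ± 0.06, adjusted p 0.00194, 0.000565 and 0.0184).

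Of 22 targets of interferon-gamma, none passed with E2, 1 was higher and 3 were lower with E4, and 1 was higher with tamoxifen, all against vehicle. The 3 lower with E4 are near the background. Cxcl10, the chemokine that draws T cells through CXCR3, did not pass in any of the 6 comparisons (0.20 ± 0.29, 0.01 ± 0.29 and 0.21 ± 0.29 for E2, E4 and tamoxifen against vehicle, at 4.55 ± 1.17 CPM in vehicle). The lowest E4 value that passed was Gbp9 at -0.75 ± 0.19 (adjusted p = 0.00767).

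Of 27 other interferon-stimulated genes, 4 were higher with E2, 12 lower and 3 higher with E4, and 2 higher with tamoxifen against vehicle. The 3 higher with E4 are near the background. In E4 against E2, 11 were lower. Epsti1, an interferon-induced gene of macrophages and stroma, was at 0.81 ± 0.19 with E2 (adjusted p = 0.0121) and -1.22 ± 0.19 in E4 against E2 (adjusted p = 0.000406). Samd9l, a growth-restraining antiviral factor, was at -0.80 ± 0.19 with E4 against vehicle (adjusted p = 0.00485). Znfx1, a helicase that senses viral RNA, was higher with E4 (0.55 ± 0.09, adjusted p = 0.000648) and with tamoxifen (0.46 ± 0.09, adjusted p = 0.0155). The lists therefore held genes in both directions with E4 against vehicle.

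Some member counts cannot be assigned with certainty. In the longest annotated transcripts, 40.9% of the 100-base stretches of Oas1a occur in Oas1g, 31.7% of those of Ifit3 in Ifit3b and 11.2% of those of Rtp4 in Gm45338. Herc6 shares 20.9% with Gm45193. Irf9, Igtp and Parp14 overlap exons of Rnf31, Irgm2 and Gm49730 on the same strand, and Mx2 is annotated as a polymorphic pseudogene in this strain. Oas2, Oas3 and Ifi27l2a, which carry the main differences, share no 100-base stretch with another annotated gene.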

How the data were processed

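Poly(A) RNA of mouse carotid arteries was sequenced from a stranded kit. Per the labels and the study's methods, the authors trimmed reads with Trim Galore, aligned them to mm10 with Bowtie2 and counted them with featureCounts, after base calling with bcl2fastq 2.17. The strand setting of the counting is not given in the sources used here. The deposited values were taken as estimated counts per Ensembl gene and rounded to whole numbers. Symbols and lengths came from GENCODE M21. Totals were 24647246 to 64221401 counts, so members at few counts (Oas3) are the least precise.

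Groups came from the sample titles. All 24 libraries entered 1 edgeR 4.0.16 quasi-likelihood fit (R 4.3.3) with TMM scaling and the default low-count filter, and 6 contrasts were adjusted by Benjamini-Hochberg over 25056 genes. Passed means adjusted p under 0.05, and SE is the fold change over the root of F. CPM used TMM-scaled totals, levels log2(CPM + 0.5), and RPKM divided CPM by exonic kilobases. No pair of libraries had over 1.67% identical counts. The procedure was tested on simulated counts.

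Alternatives were DESeq2 1.42.0, its size factors, other filters and thresholds, the libraries in the fit, each library left out, the number series and marker means as covariates. Leaving out E2 C6 and C8, tamoxifen C13 and C35, or E2 C9 and E4 C38 was chosen after seeing the data. The members, lists and named genes were chosen with earlier results of these data known. Named were members that passed in any contrast, the extremes of each contrast and 13 standing members, and from the pathway lists Irf1, Ifnar1, Ifngr1, Cxcl10 and the calls with the smallest adjusted p. A further gene under this rule is not reported here.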

Additional observations from a re-analysis of the deposited data

Results flagged for a closer look

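Of 160 groups of 6 libraries examined, 19 had a highest or lowest library set far from the other 5 by Dixon's criterion, where chance gives about 1 in 20 groups, or 8. Tamoxifen library C13 gave 10 of the 19 and E4 library C39 gave 6.

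In tamoxifen C13, the transcription factor Irf7 was at 42.4 CPM against 18.5 to 23.4 in the other 5 tamoxifen libraries. The ISG15 system gave Isg15 at 19.9 CPM (5.85 to 9.90 elsewhere in the group) and Usp18 at 31.4 CPM (9.81 to 10.6). All but 1 of the IFIT genes were far out, with Ifit1 at 150.1 CPM (16.2 to 56.5), Ifit2 at 100.5 CPM (38.4 to 54.7) and Ifit3 at 153.8 CPM (53.1 to 85.5). The RNA sensors Ddx58 and Dhx58 were at 56.6 CPM (36.4 to 39.4) and 15.2 CPM (6.52 to 9.14). The effectors Rsad2 and Bst2 were at 40.2 CPM (20.6 to 25.9) and 69.9 CPM (38 to 49.2).

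In E4 C39, Isg15 was at 9.10 CPM against 6.03 to 7.17 in the other 5 E4 libraries, the sensor Zbp1 at 9.88 CPM (4.20 to 5.96) and Bst2 at 54.3 CPM (28.9 to 35.5). The GTPases Gbp3 and Iigp1 were at 58.6 CPM (33 to 41.5) and 67.1 CPM (26.3 to 39.3), and the ubiquitin ligase Trim30a at 20.8 CPM (13.1 to 15.9). This library also had the top macrophage (5.47), NK cell, T cell, adipocyte, endothelial (6.58), fibroblast (9.22) and smooth muscle (7.93) means of the E4 group and the lowest ganglion mean (7.94), and the part of these levels in its values was not tested.

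Single flags came from other libraries. Oas2 in vehicle C5 was at 23.3 CPM (11.9 to 14.9 in the other 5), the sensor Ifih1 in E2 C6 at 29.3 CPM (21.3 to 24.1) and Iigp1 in tamoxifen C32 at 119.4 CPM (49.0 to 59.9).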

How the results depend on the processing

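Some member medians turned sign. In the second number series the median was -0.04 for E2 against vehicle (0.14 in all libraries), -0.06 for tamoxifen against vehicle (0.17) and -0.07 for tamoxifen against E2 (0.03). Without E2 C6 and C8 it was -0.03 for E2 against vehicle. For tamoxifen against E2 it ran from -0.12 to 0.11 with 1 library left out, turning without tamoxifen C13 or E2 C9 (-0.00 without E2 C29) and also without C13 and C35 (-0.06) or E2 C9 and E4 C38 (-0.01). Of 249 counts of passing members, 178 stayed within 1.5 times. For E2 against vehicle, 3 members passed, where 1037 of all 25056 genes did. Without the tamoxifen libraries, by DESeq2, without vehicle C5 and tamoxifen C35, or without tamoxifen C13 and C35, 5 members did. In that order, 956 of all 24669 genes, 1547 of 25056, 1665 of 25210 and 1163 of 25562 passed in these fits. In that comparison 1 passed with the macrophage covariate (3271 of all 25056 genes) or without E2 C6 and C8 (862 of 25517). In the second number series 0 passed (92 of 25513), and with 1 library left out 2 to 5. For E4 against vehicle, 5 passed, where 5511 of all 25056 genes did. It was 2 with DESeq2 size factors (5397 of 25056), no low-count filter (4182 of 41760) or the first series (3078 of 25474). The macrophage covariate also gave 2 (4098 of 25056), as did leaving out E2 C9 and E4 C38 (4904 of 25181). At adjusted p under 0.01 the count was 2 too. There 3 passed with the series covariate (5184 of 25056) and 1 with the B cell covariate (108) or a log2 fold change over 1. In the second series 0 passed (5 of 25513), and with 1 library left out 2 to 5. The ganglion covariate gave 7 (4665 of 25056) and only these 2 groups 6 (4396 of 23958). Without tamoxifen C13 and C35 it was 6 (6145 of 25562), 1 of them, Oasl2, higher. For tamoxifen against vehicle, 0 passed, where 558 of all 25056 genes did. It was 1 by DESeq2 (1631 of all 25056 genes), with DESeq2 size factors (712), and with the macrophage (959) or ganglion covariate (1436). At 10 counts in every library (778 of 20505) or without E2 C6 and C8 (600 of 25517) it was 1 as well. With 1 library left out, 0 to 1 passed.

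For E4 against E2, 10 passed (3157 of all 25056 genes). With no filter it was 6 (2122 of 41760), as without E2 C9 and E4 C38 (1271 of 25181). The B cell covariate left 3 (722 of 25056), adjusted p under 0.01 left 3 and a log2 fold change over 1 left 2. Leaving out E2 C6 and C8 left 1 (795 of 25517). In the second series or with the macrophage covariate 0 members and 0 of all genes passed. Only these 2 groups gave 12 (5256 of 23841), as did the ganglion covariate (4322 of 25056). It was 13 without vehicle C5 and tamoxifen C35 (6465 of 25210) or tamoxifen C13 and C35 (3615 of 25562). With 1 library left out, 5 to 11 passed. For tamoxifen against E2, 1 passed, and 5 did without vehicle C5 and tamoxifen C35, and 0 in either series, without E2 C6 and C8 or at a log2 fold change over 1 (1 with any 1 library left out). For tamoxifen against E4, 0 passed, 3 by DESeq2 and 2 without vehicle C5 and tamoxifen C35 (0 to 1 with 1 library left out). With the macrophage covariate the sign turned for Iigp1 in E4 against E2 (0.01) and for Oas2 in tamoxifen against E2 (0.04). The series alone hold 3 libraries per group, except vehicle with 4 and 2. The cause of the other changes was not tested. Numbers of all genes passing with 1 library left out are not given here, so those member counts stand without a background. No paired analysis was possible because the groups share no animal number.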
